A study of Mus musculus with 6 samples.

Results

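Transcripts of 6 chemokine ligands and of tumour necrosis factor (Ccl3, Ccl4, Ccl6, Ccl9, Cxcl2, Cxcl3 and Tnf) were followed across CD11b+ bone marrow cells of the femur and the mandible of the mouse. The members were matched by symbol and make up 7 of the 32285 genes in the count matrices. The cells were C57Bl/6 marrow cells of 2-month-old mice, with 3 femur libraries (replicate 1 female, replicates 2 and 3 male) and 3 mandible libraries (all male), and no library was treated. CD11b is the integrin encoded by Itgam that neutrophils, monocytes and macrophages carry, and cells were picked with magnetic beads against it. The labels give femurs and tibiae as the source of the femur group and the methods give femurs alone. Mandibular marrow was taken after the molars had been pulled and included the washed-out tooth sockets. The labels do not say how many mice made up a library, so a p-value measures the spread between these libraries, which may be technical.

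The libraries held 82962160 to 244946998 unique molecular identifiers (UMIs, 1 for each captured transcript) in 69776 kept cells, and the median cell of a library held 6924 to 9158 UMIs. Any pair of libraries shared 15 to 70 cell barcodes, at most 0.651% of the smaller library. A level is a gene's summed UMIs scaled to a total of 1000000 (CPM), libraries are listed as replicates 1, 2 and 3 of each site, and ± is the SD over the 6 libraries, or over the 3 of a site where a value is given for the femur or the mandible, unless SE is written. Cells were grouped by the 9 deposited clusters, numbered 0 to 8, and inside cluster 5 by the deposited reference label of each cell. Neutrophil markers such as Ltf, Camp and Retnlg summed to 163794 to 439223 CPM in clusters 0, 1, 2 and 4, monocyte markers such as Ly6c2 and Ccr2 to 3948 to 6715 CPM in cluster 5, where the neutrophil markers still summed to 68371 to 184808 CPM and 2529 of 7354 cells had the label Neutrophils, and B lineage markers such as Cd79a to 11584 to 21558 CPM in cluster 6. Clusters were built from the same cells and genes, so levels between clusters or labels are a description without a test. In a sum over a cluster, fewer expressing cells and less RNA per cell cannot be told apart.

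Chemokines are small secreted proteins that draw leukocytes towards their source through G protein-coupled receptors. CC ligands act mainly on monocytes, macrophages and their precursors through receptors such as Ccr1, and the CXC ligands Cxcl2 and Cxcl3 act on neutrophils through Cxcr2. Tnf is made as a membrane protein, is shed by the protease Adam17, and signals through Tnfrsf1a and Tnfrsf1b to NF-kB, which in turn can switch on chemokine genes. Cxcr2 ligands such as Cxcl2 draw neutrophils from the marrow towards the blood, and Ccl3, Ccl9 and Tnf are known to act on osteoclast formation.

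The 4 CC members lie in 1 stretch of chromosome 11 (mm10, GENCODE vM21): Ccl9 (ENSMUSG00000019122, chr11:83572919-83578636, minus strand), Ccl6 (ENSMUSG00000018927, chr11:83587882-83593087, minus strand), Ccl3 (ENSMUSG00000000982, chr11:83647844-83649355, minus strand) and Ccl4 (ENSMUSG00000018930, chr11:83662584-83664683, plus strand). Ccl9 and Ccl6 stand 9245 bases apart, Ccl6 and Ccl3 54756 bases apart, and Ccl3 and Ccl4 13228 bases apart. The CXC members Cxcl3 (ENSMUSG00000029379, chr5:90786103-90789600, plus strand) and Cxcl2 (ENSMUSG00000058427, chr5:90903871-90905938, plus strand) are 114270 bases apart, and Tnf (ENSMUSG00000024401, chr17:35199381-35202007, minus strand) stands by itself. Ccl3 with Ccl4, Ccl6 with Ccl9 and Cxcl2 with Cxcl3 are paralogues, and how reads that fit both members of a pair were counted, and whether counting used the strand, is not given in the sources used here, so each gene's counts carry that uncertainty.

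The population with the most of each transcript differed among members. Ccl9 was found almost wholly in cluster 5, at 223 ± 53.6 CPM. Ccl6, Ccl3, Ccl4 and Cxcl2 had their highest mean in cluster 1 and Tnf in cluster 0, both clusters of neutrophil-marked cells. Cxcl3 was close to the limit of detection, with 723 UMIs in 363 of the 69776 cells. Between the femur and the mandible no member passed an adjusted p of 0.05 in any cluster by edgeR, and the calls of other fits are given with those of all genes beside the site result.

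**Figure D1:**
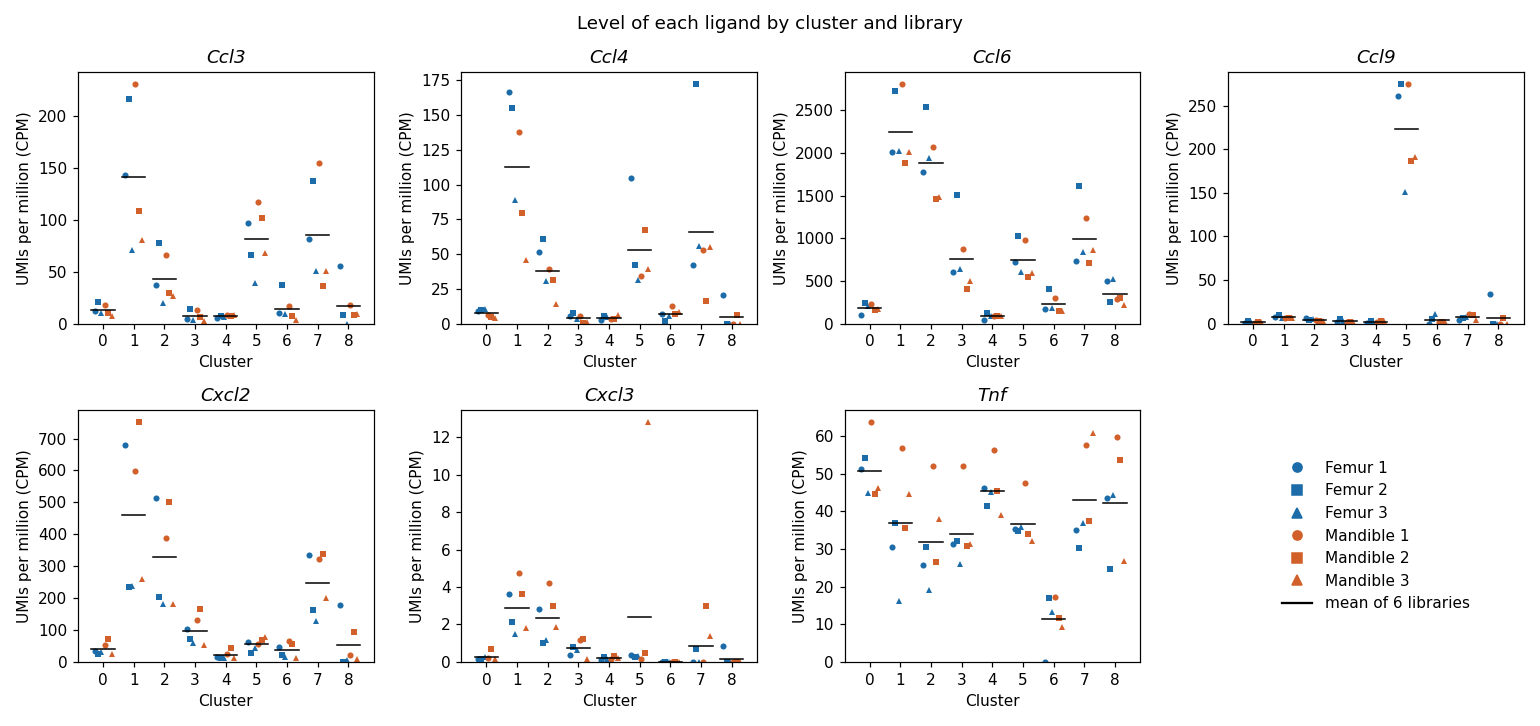
Each panel plots 1 gene, with the cluster on the x axis and UMIs per 1000000 (CPM) on the y axis, a point for each library (blue femur, orange mandible, symbols for replicates 1 to 3) and a line for the mean of 6 libraries. Ccl9 stood at 151 to 275 CPM in cluster 5 and at 34.6 CPM or less in every library of the other clusters, while Tnf was spread over all clusters and lowest in cluster 6.

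Ccl6 and Ccl9, neighbouring genes for ligands of Ccr1, had very unlike distributions, and the bases just upstream of each are shown to set the starts of these close neighbours side by side. Both windows come from RefSeq (GRCm38.p6, minus strand), run from 150 bases to 1 base before the annotated start, and are written 5′ to 3′. Capitals mark matches to the NF-kB (kappaB) consensus and to TATAAA on either strand.
Ccl6, chr11:83593088-83593237: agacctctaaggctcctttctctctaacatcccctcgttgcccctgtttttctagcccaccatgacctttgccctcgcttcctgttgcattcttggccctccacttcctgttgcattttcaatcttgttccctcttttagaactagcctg
Ccl9, chr11:83578637-83578786: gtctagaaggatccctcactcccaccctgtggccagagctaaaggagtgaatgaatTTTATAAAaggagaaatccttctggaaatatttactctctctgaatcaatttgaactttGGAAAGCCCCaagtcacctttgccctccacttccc

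Of 7 members, 6 had a RefSeq promoter entry and Ccl4 had none. In the 250 bases before the start, Ccl9 held a kappaB match 35 to 26 bases upstream. It held TATAAA in 2 overlapping orientations 94 to 87 bases upstream and once more 224 to 219 bases upstream. The letters TGANTCA (any base at N), here TGAATCA, stood 53 to 47 bases upstream and are left in lower case. None of these letters occurred in the Ccl6 window. Of 32851 RefSeq promoters of that length, 3.90% held the kappaB consensus, 12.4% TATAAA and 6.75% TGANTCA. Over the 250 bases the Ccl6 and Ccl9 promoters were 47.2% identical, within the 41.8 to 54.7% of the 15 pairs of members, with a longest shared run of 13 bases.

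Ccl9 in cluster 5 measured 261, 275 and 151 CPM in the femur libraries and 275, 187 and 191 CPM in the mandible libraries. Femur replicate 3 was lowest and the sites overlapped. The next level, 7.43 ± 2.97 CPM in cluster 7, did not reach the range of cluster 5, and clusters 7, 1, 8, 2, 6, 3, 4 and 0 each overlapped their neighbour in the order. Cluster 5 held 11.7% of the cells of a library and 91.3% ± 3.24 of its Ccl9 UMIs (85.5 to 94.0%). A Ccl9 UMI was seen in 64.2% ± 6.26 of cluster 5 cells, and in 1.72% ± 1.497 of the B lineage cells of cluster 6, which are used here to gauge the share that free RNA gives. Median depths were 9031 to 10716 UMIs per cell in cluster 5 and 3104 to 5541 in cluster 6. Thinned to 1000 UMIs, over the cells with at least that many, the expected share was 0.342% in cluster 6 and 29.1% in monocyte-labelled cells. In cluster 6 of Femur replicate 1 no Ccl9 UMI was seen in 39 cells, which allows a share of up to 7.69% by counting error alone. The 2.58% ± 0.459 of cluster 1 and 1.504% ± 0.594 of cluster 0 lay within the range of cluster 6 (0 to 3.80%). Whether the Ccl9 of clusters 0 and 1 is free RNA was not tested.

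Inside cluster 5, Ccl9 was carried above all by cells labelled Monocytes (3734 of 7354 cells), at 429, 399 and 324 CPM in the femur libraries and 387, 308 and 323 CPM in the mandible libraries. These monocyte-labelled cells held 70.0% ± 6.42 of the cluster's Ccl9 UMIs, and 81.4% ± 2.85 of them had a Ccl9 UMI. Cells labelled DC measured 267 ± 106 CPM, those labelled Macrophages 115 ± 53.3 CPM and those labelled Neutrophils 109.9 ± 31.1 CPM. The ranges of the monocyte- and neutrophil-labelled cells did not overlap, at 308 to 429 and 76.2 to 167 CPM. Of these labels only the 47 cells labelled Basophils had a higher mean, at 651 to 1612 CPM.

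Ccl6 lay mainly in neutrophil-marked cells instead. In cluster 1 it measured 2017, 2722 and 2024 CPM in the femur libraries and 2813, 1882 and 2012 CPM in the mandible libraries. Femur replicate 2 and Mandible replicate 1 were high, and the sites overlapped. Cluster 2, another cluster of neutrophils, had 1882 ± 403 CPM, and clusters 1 and 2 gave 37.2% and 25.0% of a library's Ccl6 UMIs. Clusters 7, 3 and 5 followed at 997 ± 356, 755 ± 403 and 749 ± 209.5 CPM with overlapping ranges, and the lowest level, 89.3 ± 27.0 CPM, was in cluster 4. Nearly every cell of clusters 1 and 2 had a Ccl6 UMI (94.7% ± 2.52 and 94.2% ± 3.50), against 20.5% ± 12.3 in cluster 6. Cluster 0, at 184 ± 52.4 CPM, and cluster 4 lay at or below the 229 ± 102 CPM of cluster 6, but their cells are deeper. Before thinning, 7199 of 19261 cluster 0 cells had a Ccl6 UMI, a larger share than in cluster 6. Thinned to 1000 UMIs, 10.6% of cluster 0 cells and 8.90% of cluster 6 cells had a Ccl6 UMI. Whether the Ccl6 of clusters 0 and 4 is free RNA was not tested.

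In cluster 5, Ccl6 was found at 725, 1029.8 and 602 CPM in the femur libraries and 986, 552 and 597 CPM in the mandible libraries. The same 2 libraries, Femur replicate 2 and Mandible replicate 1, were highest there as in cluster 1. Monocyte-labelled cells had 893 ± 194 CPM and neutrophil-labelled cells 715 ± 224 CPM, with ranges that overlapped. In the monocyte-labelled cells 83.8% ± 2.43 of those with a Ccl6 UMI also had a Ccl9 UMI, against 38.2% ± 13.2 of those without, and the direction was the same in 6 of 6 libraries. Median depth was 8012 to 10625 UMIs in the first and 1975 to 9968 UMIs in the second, so in some libraries the cells without Ccl6 were much shallower. In cluster 1, where Ccl6 was nearly universal, 2.65% ± 0.458 of Ccl6-positive cells had Ccl9.

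**Figure D2:**
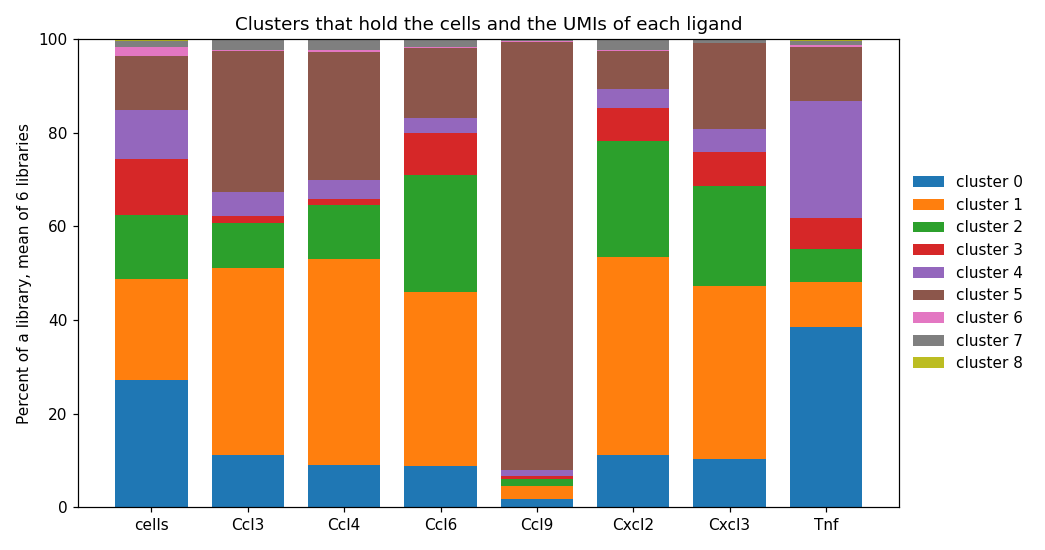
Stacked bars show the percent of a library (y axis, mean of 6 libraries) that each cluster contributes to the kept cells (first bar) and to the UMIs of each gene (other bars). Cluster 5 held 11.7% of cells but 91.3% of Ccl9 UMIs, and clusters 0 and 4 held 38.4% and 24.8% of Tnf UMIs.

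Ccl3 and Ccl4, known as macrophage inflammatory proteins, had patterns close to each other. Over the 54 sums of a library and a cluster, log2(CPM + 1) of the 2 genes had a Pearson r of 0.866, a description since the sums share libraries and clusters. Ccl3 in cluster 1 measured 144, 217 and 70.9 CPM in the femur libraries and 231, 108 and 80.3 CPM in the mandible libraries. Femur replicate 2 and Mandible replicate 1 were high, Femur replicate 3 was low, and the sites overlapped. Cluster 7 had 85.3 ± 49.8 CPM, cluster 5 81.7 ± 28.7 CPM and cluster 2 43.0 ± 23.6 CPM, each overlapping its neighbour. Clusters 0, 3 and 4, at 12.96, 7.48 and 7.12 CPM, lay below the 14.4 ± 12.2 CPM of cluster 6, whose cells are shallower. A Ccl3 UMI was seen in 1178 of 19261 cluster 0 cells and 275 of 7914 cluster 3 cells. Whether the Ccl3 of these clusters is free RNA was not tested. Cluster 1 gave 40.1% ± 12.9 of a library's Ccl3 UMIs and cluster 5 30.2% ± 16.0, with a wide range for cluster 5 (15.4 to 51.5%).

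For Ccl4 the cluster 1 values were 167, 155 and 88.9 CPM in the femur libraries and 138, 79.6 and 45.9 CPM in the mandible libraries. Femur replicates 1 and 2 and Mandible replicate 1 were high, Mandible replicate 3 was lowest, and the sites overlapped. Clusters 7, 5 and 2 followed at 65.8 ± 54.3, 53.2 ± 28.2 and 38.1 ± 16.6 CPM. The range of cluster 2 stood clear of cluster 0 (7.41 ± 2.59 CPM), which was close to cluster 6 (7.11 ± 3.53 CPM). A Ccl4 UMI was seen in 11.9% ± 3.10 of cluster 1 cells and a Ccl3 UMI in 19.5% ± 6.13, against 2.32% ± 1.43 and 3.56% ± 3.03 of cluster 6 cells at median depths of 3827 to 6154 and 3104 to 5541 UMIs.

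A Ccl4 UMI was more frequent in cells that also had a Ccl3 UMI. In cluster 1, 28.4% ± 5.05 of cells with a Ccl3 UMI also had a Ccl4 UMI, against 8.01% ± 1.97 of cells without Ccl3, in 6 of 6 libraries. Median depths per library were close, at 3877 to 5970.5 UMIs in cells with Ccl3 and 3820.0 to 6210.0 in cells without. The same shares were 16.7% ± 2.78 and 5.54% ± 1.37 in cluster 2, 21.9% ± 3.58 and 7.97% ± 0.920 in cluster 5, and 16.9% ± 4.54 and 7.69% ± 2.00 in monocyte-labelled cells, again in 6 of 6 libraries each. In cluster 0 they were 16.0% ± 2.55 and 1.78% ± 0.730, in 6 of 6 libraries. In cluster 3 they were 3.97% ± 4.41 and 1.26% ± 0.905, higher with Ccl3 in 3 of 6 libraries. The cells with Ccl3 were deeper in cluster 5, at 10018 to 12406 against 6356 to 10374 UMIs. They were also deeper in cluster 0, at 14249 to 17657.5 against 8485 to 13120 UMIs. How much of this comes from reads that fit both genes was not tested.

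**Figure D3:**
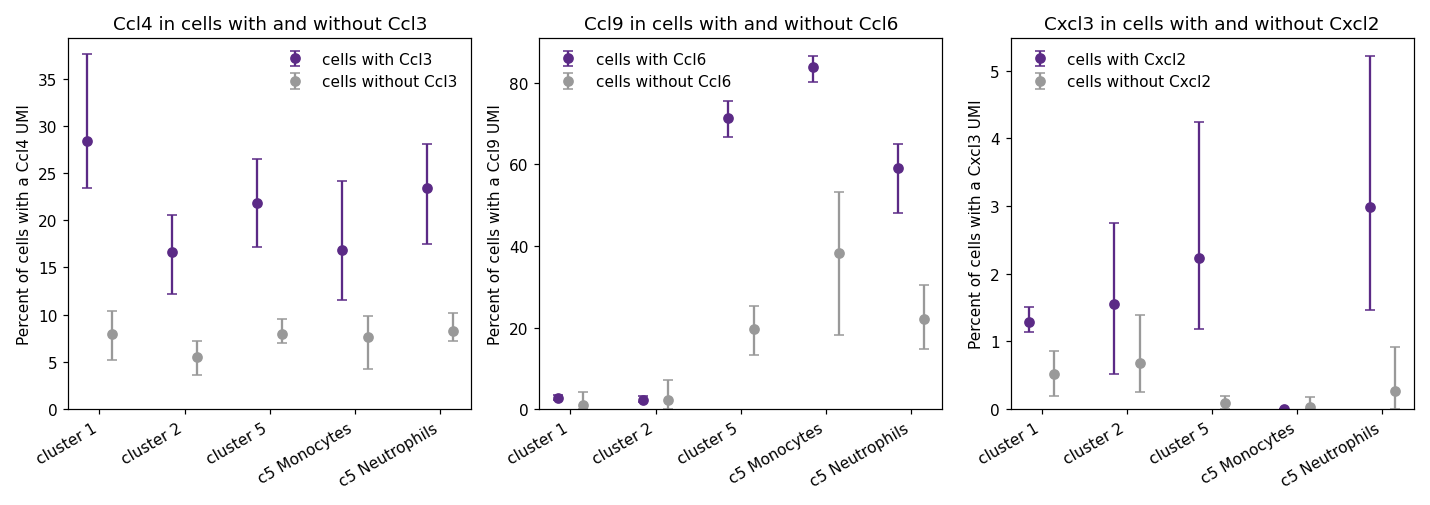
Points show the mean percent of cells with a UMI of the second gene (y axis) among cells with (purple) and without (grey) the first gene, and bars run from the lowest to the highest of 6 libraries. For cluster 1 the Ccl4 shares were 28.4% with and 8.01% without Ccl3.

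Ccl3 and Ccl4 were concentrated in few cells, as were Cxcl2 and Cxcl3. Ranked by UMIs, the top 1335 of 8616 Ccl3-positive cells held at least as many Ccl3 UMIs as all the others, and for Ccl4 this took 557 of 4544 cells. As percents of positive cells these were 15.5% and 12.3%. The percent was 13.1% for Cxcl2, 11.3% for Cxcl3, 20.4% for Ccl6, 21.4% for Ccl9 and 27.3% for Tnf. For Ccl3 and Ccl4 the extreme was 1 macrophage-labelled cell of cluster 5 in Femur replicate 1 that held 441 Ccl4, 119 Tnf and 91 Ccl3 UMIs among its 11700 UMIs. This cell gave 95.2% of the Ccl4 UMIs of all macrophage-labelled cells of that library, 81.5% of their Tnf and 62.8% of their Ccl3. Without it, Ccl4 of the macrophage-labelled cells of Femur replicate 1 was 18.0 CPM in place of 376 CPM. No doublet caller was run, and whether this cell was a doublet was not tested.

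By CPM, basophil-labelled cells of cluster 5 had more Ccl3 and Ccl4 than the cells of any other label. In UMIs per cell this did not hold throughout. In Femur replicate 2 the 1 cell labelled ILC held 3.62% of the cluster's Ccl4 UMIs, and the 3 basophil-labelled cells together 10.0%. There were 47 basophil-labelled cells (3 in each femur library, and 2, 17 and 19 in the mandible libraries), a mean of 0.641% of the cells of cluster 5. Ccl3 in these cells measured 2231, 5269 and 1314 CPM in the femur libraries and 1741, 2316 and 2459.8 CPM in the mandible libraries. Ccl4 measured 2386, 5509 and 2272 CPM in the femur libraries and 3805, 2683 and 2032 CPM in the mandible libraries. In every library both genes stood above the level of each other label, and with 2 to 19 cells per library the sites were not compared.

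They gave 10.97% ± 10.2 of the Ccl3 UMIs of cluster 5 (2.08 to 30.1%) and 19.0% ± 13.3 of its Ccl4 UMIs (6.97 to 43.0%). Basophils are rare granulocytes that release histamine and interleukin 4, and their markers were present. Gata2, a transcription factor of the lineage, and Hdc, the enzyme of histamine synthesis, had a UMI in 47 of 47 cells, Ms4a2, a chain of the IgE receptor, in 97.9%, Cd200r3 in 95.7% and the basophil protease Mcpt8 in 83.0%. The other listed markers were less frequent or alike, with Cpa3 in 85.1%, Prss34 in 68.1%, Il4 in 59.6%, Fcer1a in 53.2% and Kit in 10.6%. In the 3734 monocyte-labelled cells Ms4a2 was seen in 0.107%, Mcpt8 in 0.214% and Hdc in 15.3%. In the 2529 neutrophil-labelled cells they were seen in 1.23%, 0.830% and 85.3%, so Hdc alone does not set basophil-labelled cells apart from these. Ccl3 was seen in 93.6% of basophil-labelled cells, Ccl4 in 91.5%, Ccl9 in 78.7% and Ccl6 in 66.0%, but Tnf in 4.26%, at a median depth of 5676 UMIs.

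Apart from these cells, Ccl3 in cluster 5 was found in monocyte-labelled cells at 122, 64.0 and 51.5 CPM in the femur libraries and 136, 121 and 71.9 CPM in the mandible libraries. Femur replicate 1 and Mandible replicates 1 and 2 were high, and the sites overlapped. Neutrophil-labelled cells had 58.2 ± 24.8 CPM, macrophage-labelled cells 60.6 ± 42.8 CPM and DC-labelled cells 23.0 ± 11.9 CPM. Ccl4 in monocyte-labelled cells was 36.1 ± 15.8 CPM and in neutrophil-labelled cells 32.9 ± 17.3 CPM, with ranges that overlapped.

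**Figure D4:**
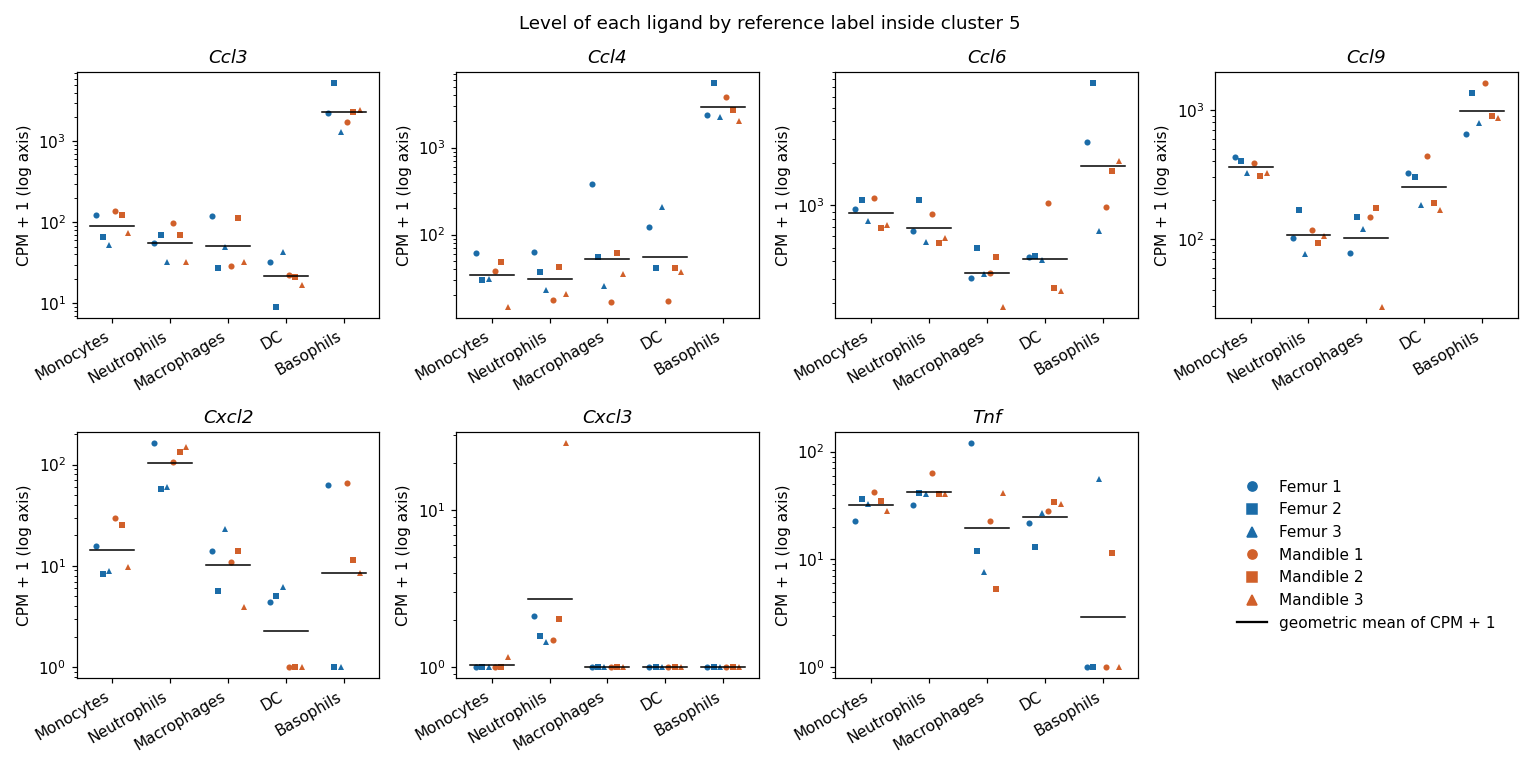
Each panel plots 1 gene over 5 reference labels inside cluster 5, with CPM + 1 on a log y axis, a point for each library (blue femur, orange mandible) and a line for the geometric mean. Basophil-labelled cells had the highest Ccl3, at 1314 to 5269 CPM, and neutrophil-labelled cells the highest Cxcl2, at 56.9 to 161 CPM.

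Cxcl2 and Cxcl3 are neutrophil attractants, and by Pearson correlation Cxcl2 was the gene most like Cxcl3 over the 54 sums (r = 0.664), while by Spearman correlation 0 of the 3 nearest genes of Cxcl3 were kept. Their upstream bases are shown because the letters of the kappaB match in Cxcl2, GGGAATTTCC, were found in both and lay 97 to 88 bases before the start of Cxcl2 and 73 to 64 bases before that of Cxcl3. The windows are from RefSeq (GRCm38.p6, plus strand), start 150 bases before the annotated start and end 29 bases (Cxcl2, where the GENCODE gene begins) and 1 base (Cxcl3) before it. Capitals mark kappaB matches, here 2 that overlap in 1 run, and TATAAA.
Cxcl2, chr5:90903749-90903870: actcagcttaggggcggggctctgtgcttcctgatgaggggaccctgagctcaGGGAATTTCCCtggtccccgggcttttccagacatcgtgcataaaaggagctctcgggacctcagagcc
Cxcl3, chr5:90785951-90786100: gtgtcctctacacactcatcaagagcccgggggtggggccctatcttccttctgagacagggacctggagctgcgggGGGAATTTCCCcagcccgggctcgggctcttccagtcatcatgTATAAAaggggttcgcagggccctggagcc

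GGGAATTTCC, searched on both strands, stood in 28 of 32851 promoters of 250 bases (0.0852%). Cxcl3 also held TATAAA 30 to 25 bases before its start, as did Tnf 29 to 24 bases before its own, and Cxcl2 did not hold those letters. The Cxcl2 and Cxcl3 promoters were 54.7% identical, the highest of the 15 pairs, and their longest shared run of 11 bases began at the kappaB letters. A match is a string of letters and not a measured binding site.

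Cxcl2 in cluster 1 measured 681, 234 and 239 CPM in the femur libraries and 598, 752 and 259 CPM in the mandible libraries. Femur replicate 1 and Mandible replicates 1 and 2 were high and the other libraries low, so each site had both high and low libraries. In cluster 2 it measured 513, 202 and 181 CPM in the femur libraries and 389.6, 502 and 181 CPM in the mandible libraries, with the same libraries high. Cluster 7 followed at 248 ± 95.4 CPM and cluster 3 at 97.6 ± 45.0 CPM, each overlapping its neighbour. Clusters 1 and 2 gave 42.2% ± 8.10 and 24.7% ± 2.99 of a library's Cxcl2 UMIs. A Cxcl2 UMI was seen in 46.0% ± 13.04 of cluster 1 cells and 45.8% ± 11.3 of cluster 2 cells, against 6.61% ± 2.04 of cluster 6 cells.

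Within cluster 5, Cxcl2 lay mainly in the neutrophil-labelled cells, at 161, 56.9 and 59.6 CPM in the femur libraries and 105, 131 and 149 CPM in the mandible libraries, which gave 85.9% ± 8.86 of the cluster's Cxcl2 UMIs. In Mandible replicate 3, 1 cell held 560 of the 1182 Cxcl2 UMIs, and without it that library stood at 78.7 CPM. Monocyte-labelled cells had 14.6, 7.35 and 7.93 CPM in the femur libraries and 28.4, 24.5 and 8.73 CPM in the mandible libraries. Their mean of 15.3 ± 9.15 CPM was below the 36.4 ± 23.0 CPM of cluster 6, and their share of cells with a UMI (6.33% ± 3.53) was no higher. Median cells held 8022 to 10258 against 3104 to 5541 UMIs. Whether the Cxcl2 of monocyte-labelled cells is free RNA was not tested. Cluster 4, whose cells are far deeper than those of cluster 6, had 20.1 ± 12.0 CPM. Of its thinned cells, 1.64% had a Cxcl2 UMI against 1.95% in cluster 6. Whether the Cxcl2 of cluster 4 is free RNA was not tested. Cluster 0, at 39.3 ± 18.5 CPM, was close to cluster 6.

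Cxcl3 was seen in too few cells for firm levels. Its mean was 2.90 ± 1.28 CPM in cluster 1 and 2.35 ± 1.23 CPM in cluster 2, and it was not seen in the 1009 cells of cluster 6, which allows up to 0.761% of cells in the library with most of them and up to 7.69% in that with fewest. Cluster 5 measured 0.379, 0.244 and 0.298 CPM in the femur libraries and 0.181, 0.468 and 12.8 CPM in the mandible libraries. The high value of Mandible replicate 3 came from 1 neutrophil-labelled cell with 187 Cxcl3 and 560 Cxcl2 UMIs among its 29454 UMIs, which held 25.9% of all Cxcl3 UMIs of the series. Without it, cluster 5 of Mandible replicate 3 had 1.13 CPM of Cxcl3 in place of 12.8, and 42.5 CPM of Cxcl2 in place of 77.4. Whether that cell, far deeper than the median cell of cluster 5, was a doublet was not tested. In cluster 1, 1.28% ± 0.175 of cells with Cxcl2 had a Cxcl3 UMI, against 0.522% ± 0.291 of cells without, at median depths of 4308 to 6553 and 3633 to 5616 UMIs. In neutrophil-labelled cells of cluster 5 the shares were 2.99% ± 1.498 and 0.268% ± 0.364, and the direction held in 6 of 6 libraries in both, though the Cxcl2-positive cells of cluster 5 were deeper (15272 to 23220.5 against 1915 to 16286 UMIs).

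Tnf, the cytokine at the head of the pathway, was the member spread most evenly over the clusters. In cluster 0 it measured 51.3, 54.2 and 45.0 CPM in the femur libraries and 63.8, 44.6 and 46.2 CPM in the mandible libraries, and cluster 4, the cluster of deepest cells, had 45.6 ± 5.93 CPM. Clusters 7, 8, 1, 5, 3 and 2 ran from 43.1 ± 12.8 down to 32.0 ± 11.6 CPM with overlapping ranges. Cluster 6 was the exception, at 11.4 ± 6.38 CPM, and its highest library, at 17.4 CPM, was below every library of the other clusters except Femur replicate 3 in cluster 1 (16.1 CPM). Cluster 0 gave 38.4% ± 5.05 and cluster 4 24.8% ± 6.37 of a library's Tnf UMIs.

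A Tnf UMI was seen in 54.4% ± 3.78 of cluster 4 cells, 36.5% ± 5.11 of cluster 0 cells and 13.2% ± 4.46 of cluster 1 cells, but median depths were 17937 to 23203, 8553 to 13212 and 3827 to 6154 UMIs. Thinned to 1000 UMIs, the shares were 4.44%, 4.71% and 3.29%, against 0.685% in cluster 6. Tnf had the weakest likeness to the other members, with r of 0.0534 to 0.147 over the 54 sums. In cluster 1, Ccl3 was seen in 22.7% ± 5.95 of cells with Tnf and 19.0% ± 6.25 of cells without, higher in 6 of 6 libraries, but the cells with Tnf were also deeper (4848 to 7065 against 3790.0 to 6052 UMIs). Inside cluster 5 neutrophil-labelled cells had 42.0 ± 10.8 CPM and monocyte-labelled cells 31.7 ± 6.597 CPM, and the ranges overlapped.

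Among 7186 genes with a mean of at least 10 CPM over the 54 sums, the genes most like each member were as follows. Ccl9 was nearest to Clec4a1 (r = 0.939), Ifi207 (r = 0.938) and Clec4a3 (r = 0.932), which include lectin receptors of monocytes. Ccl6 was nearest to Sirpb1b (r = 0.966), Slc15a3 (r = 0.953) and Cd300ld (r = 0.953). For Ccl3 they were Gm29282 (r = 0.881), Ccl4 (r = 0.866) and Nlrp1b (r = 0.858), and for Ccl4 Gm29282 (r = 0.909), Prr5l (r = 0.885) and Parp8 (r = 0.883). Cxcl2 was nearest to Slc2a1 (r = 0.911), Il1r2 (r = 0.905) and Junb (r = 0.903), a glucose transporter, the decoy receptor of interleukin 1 and a Jun family factor. Cxcl3 was nearest to Cxcl2 (r = 0.664), Cebpb (r = 0.661) and Nlrp3 (r = 0.653), and Tnf to Stk39 (r = 0.864), Aoah (r = 0.855) and Clec4a2 (r = 0.839). These choices moved with the measure, since 8 of the 21 genes were kept with Spearman correlation.

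The study set out to compare myeloid cells of the mandible with those of the femur, and the members were tested for that difference in 14 sums, namely all cells, the 9 clusters and 4 labels of cluster 5. A member passed the filter on low counts in 74 fits of edgeR's quasi-likelihood test. None of the 74 had an adjusted p under 0.05, 11 had an unadjusted p under 0.05, against 8.49% of all gene fits (11470 of 135102), and the smallest adjusted p was 0.211. DESeq2 called 1 member fit of 85 (1.18%), Ccl4 in cluster 0, against 0.809% of all gene fits and 0.348% in cluster 0. With no filter on low counts 11 of 95 member fits (11.6%) were called, against 1.05% of all gene fits. These were Ccl4 in clusters 0, 2 and 7 and in DC- and macrophage-labelled cells, and Cxcl2 in clusters 3 and 4 and monocyte-labelled cells. The others were Tnf in clusters 1 and 2 and Cxcl3 in neutrophil-labelled cells of cluster 5. In the macrophage-labelled cells (-2.38) 1 cell held 95.2% of the Ccl4 UMIs of Femur replicate 1. For Cxcl3 (3.91) 1 cell held 91.7% of those of Mandible replicate 3. Over all genes tested the share called was 0% over all cells and in clusters 5, 6 and 8, 0.0163% in cluster 0, 0.0842% in cluster 1, 0.0416% in cluster 2, 0.0108% in cluster 3, 0.0245% in cluster 4 and 0.0842% in cluster 7. By label in cluster 5 it was 0.0968% for Monocytes, 0.0603% for Neutrophils, 0.0445% for Macrophages and 0.0223% for DC. A fit with a block on the library number, which holds 2 femur and mandible pairs and whose meaning the labels do not give, called 18 of 76 member fits (23.7%), against 3.93% of all gene fits. Of these 18, 8 were Cxcl2 (log2 ratios of 1.17 to 1.77), 3 Tnf (0.48 to 1.04), 2 Cxcl3 (1.38 in cluster 1 and 1.76 in cluster 2) and 2 Ccl3 (0.52 in cluster 1 and 1.13 in monocyte-labelled cells), all higher in the mandible. The other 3 were lower there, Ccl4 in clusters 0 and 7 (-0.80 and -1.63) and Ccl6 in cluster 3 (-0.74). In cluster 1, Cxcl2 was higher in the mandible library of both pairs (598 against 234 CPM and 752 against 239 CPM), as was Tnf (57.0 against 37.0 CPM and 35.6 against 16.1 CPM). The block fit leaves out Femur replicate 1, among the high libraries for Cxcl2 in cluster 1, and Mandible replicate 3, among the low ones. Its calls mix the block with this smaller set of libraries, and the 2 were not told apart. Whether this number pairs the libraries was not settled.

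**Figure D5:**
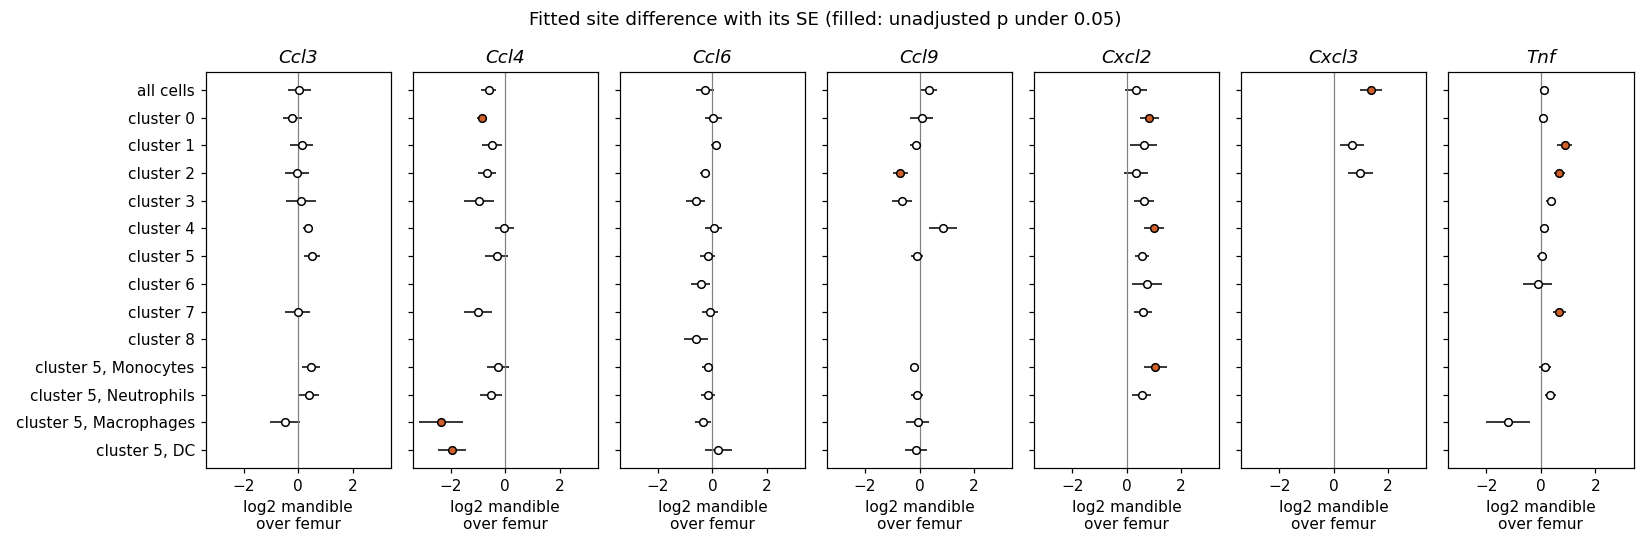
Points show the fitted log2 ratio of mandible over femur (x axis) with its SE for each gene (panels) and population (y axis), and filled points have an unadjusted p under 0.05. Ccl4 lay below 0 in 12 of 12 fits and Cxcl2 above 0 in 11 of 11, and no point passed the adjusted threshold.

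Tnf in cluster 1 came nearest to the threshold. The levels were 30.5, 37.0 and 16.1 CPM in the femur libraries and 57.0, 35.6 and 44.7 CPM in the mandible libraries, where Mandible replicate 1 was highest and Femur replicate 3 lowest, and Mandible replicate 2 lay below Femur replicate 2. The log2 ratio of mandible over femur was 0.87 ± 0.27 (SE), with adjusted p = 0.211 by edgeR. In cluster 2 Tnf measured 25.7, 30.5 and 19.2 CPM in the femur libraries and 52.1, 26.6 and 38.0 CPM in the mandible libraries, with a log2 ratio of 0.68 ± 0.21 (SE) and adjusted p = 0.232, and a ratio of 0.42 without Mandible replicate 1. In cluster 7 the ratio was 0.68 ± 0.25 (SE), and the sites did not overlap, but the adjusted p was 0.755 by edgeR. In cluster 5 it was 0.05 ± 0.18 (SE). The difference between the site effects of clusters 5 and 1 was -0.86 ± 0.33 (SE) for Tnf on the log2 scale, with adjusted p = 0.474 by limma, and -0.30 to 0.43 for the 5 other members tested. Without Femur replicate 3 the difference for Tnf was -0.44. No gene of 10383 passed in that test (0%), and 1020 had an unadjusted p under 0.05.

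Ccl4 was lower at the mandible in all 12 fits, although these share libraries and, in part, cells, and the sign turned in cluster 5 (0.03) and in its macrophage-labelled cells (0.0034) without the 2 cells named above, an alternative chosen after seeing the data. In cluster 0 Ccl4 measured 8.88, 9.62 and 10.4 CPM in the femur libraries and 6.46, 4.85 and 4.24 CPM in the mandible libraries, with no overlap. The log2 ratio was -0.85 ± 0.20 (SE), with adjusted p = 0.486 by edgeR. The share of cluster 0 cells with a Ccl4 UMI was 3.38% ± 0.808 at the femur and 1.88% ± 0.418 at the mandible, a range that reaches the 2.32% ± 1.43 of cluster 6. In DC-labelled cells Ccl4 measured 120.0, 39.9 and 205 CPM in the femur libraries and 16.2, 40.0 and 35.8 CPM in the mandible libraries, in 16 to 40 cells per library, with a log2 ratio of -1.95 ± 0.52 (SE) and adjusted p = 0.439 by edgeR. In macrophage-labelled cells the ratio of -2.36 ± 0.80 (SE, adjusted p = 0.581) held the cell of Femur replicate 1 with 441 Ccl4 UMIs, and was -0.38 without that library. In cluster 1 the ratio was -0.49 ± 0.36 and in cluster 5 -0.32 ± 0.41 (SE), and without Femur replicate 1 the latter was 0.28. The ratio in cluster 1 was -0.31 without Femur replicate 1, -0.96 without Mandible replicate 1 and -0.17 without Mandible replicate 3. With the block on the library number they were 0.0065 and 0.33.

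Cxcl2 had a positive log2 ratio in 11 of 11 fits, from 0.34 to 1.05. It kept that sign under every other setting in the 5 fits repeated under them (clusters 0, 1, 4 and 5 and the monocyte-labelled cells), but its size moved with single libraries. Without 1 library it ran from 0.25 (without Mandible replicate 2) to 1.33 (without Femur replicate 1) in cluster 1, where leaving out Femur replicate 2 or 3 gave 0.33 and 0.37 and leaving out Mandible replicate 3 gave 0.96. Without Mandible replicate 2 it was 0.41 in cluster 0 and 0.44 in cluster 4. In cluster 5 it was 0.32 without Femur replicate 2. In cluster 1 the ratio was 0.62 ± 0.49 (SE), and the site means differed by less than the SD within a site (384 ± 257 CPM at the femur and 536 ± 252 CPM at the mandible). With the block on the library number, which gives only 2 pairs, the ratio in cluster 1 was 1.68 and was called. That fit leaves out Femur replicate 1 and Mandible replicate 3. The ratio was 0.83 ± 0.35 in cluster 0 (adjusted p = 0.721) and 0.57 ± 0.27 in cluster 5 (SE, edgeR). The ratios with the largest values were 1.05 ± 0.41 in monocyte-labelled cells, at a level read as background, and 1.01 ± 0.37 in cluster 4 (SE). Cxcl2 in cluster 4 averaged 20.1 ± 12.0 CPM, the lowest mean of the clusters. Cxcl3 over all cells measured 0.857, 0.667 and 0.453 CPM in the femur libraries and 1.31, 0.988 and 2.90 CPM in the mandible libraries without overlap, with a log2 ratio of 1.36 ± 0.41 (SE) and adjusted p = 0.398 by edgeR. Without the 1 neutrophil-labelled cell with 187 Cxcl3 UMIs, Mandible replicate 3 stood at 0.651 CPM, below Femur replicates 1 and 2, so the sites overlapped, and the log2 ratio without the 2 leading cells, chosen after seeing the data, was 0.58. Without Mandible replicate 3 it was 0.82.

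The CC ligands other than Ccl4 had no common direction. Ccl3 in cluster 5 measured 97.5, 66.4 and 39.4 CPM in the femur libraries and 117, 102 and 68.0 CPM in the mandible libraries, with a log2 ratio of 0.50 ± 0.29 (SE), and in cluster 1 the ratio was 0.13 ± 0.43. Without 1 library they ran from 0.28 (without Femur replicate 3) to 0.78 (without Femur replicate 1) and from -0.43 (without Mandible replicate 1) to 0.48 (without Femur replicate 2). The block on the library number gave 0.52 in cluster 1 (adjusted p = 0.00223 by edgeR) and 1.13 in monocyte-labelled cells (adjusted p = 3.01e-06), both called. Ccl6 had 0.13 ± 0.20 in cluster 1 and -0.17 ± 0.26 in cluster 5. Ccl9 had -0.09 ± 0.22 in cluster 5 and -0.20 ± 0.14 in its monocyte-labelled cells (SE), where it is most abundant, with adjusted p of 0.929 and 0.577 by edgeR. In cluster 2 the Ccl9 ratio was -0.71 ± 0.27 (SE, adjusted p = 0.322 by edgeR). Levels there were low, at 5.53 ± 0.98 CPM at the femur and 3.28 ± 0.65 CPM at the mandible, and the sites did not overlap.

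Shares of positive cells were compared as well, with 2-sided exact permutation tests in which 3 against 3 libraries cannot go below p = 0.1. Of 63 pairs of a member and a cluster, 5 had no overlap between sites (7.94%), where 11.6% of all gene and cluster pairs had none. These were Ccl4 in cluster 0, Ccl3 in clusters 5 and 6, Cxcl2 in cluster 7 and Ccl6 in cluster 8, and the smallest adjusted p was 0.788 by the exact test. When 1 library was left out the count ran from 8 to 17 (12.7 to 27.0%), the highest without Mandible replicate 1, where the share over all genes ran from 19.5 to 24.1%. In cluster 5, the share of cells with a Ccl3 UMI was 26.0% ± 3.38 at the femur and 37.6% ± 4.95 at the mandible (n = 3 each, exact permutation p = 0.1). Thinned to 1000 UMIs per cell the sites overlapped, at 5.48% and 8.48% (exact permutation p = 0.2). Of the pairs named, Ccl3 in cluster 5 and Cxcl2 in cluster 7 overlapped after thinning, and Ccl9 in clusters 2 and 3 came to have no overlap. The count after thinning was again 5 of 63. The share over all genes was not computed after thinning, so this count has no background beside it. In the B lineage cells of cluster 6 the order for Ccl3 was the opposite, with 5.77% ± 2.82 at the femur and 1.35% ± 0.616 at the mandible.

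Values that could move with these levels were as follows. Genes known to respond to cell handling (20 genes, among them Fos, Junb, Egr1 and Hspa1a) summed in cluster 1 to 14522, 14007 and 9297 CPM in the femur libraries and 17228, 11822 and 11212 CPM in the mandible libraries, and in cluster 5 to 4908 to 7019 CPM in the femur libraries and 4973 to 8174 CPM in the mandible libraries. Mandible replicate 1 was highest in both, and the sites overlapped. Transcripts of tooth, bone and stroma (12 genes, among them Amelx and Col1a1) summed in cluster 5 to 84.7 to 155 CPM in the femur libraries and 173 to 1983 CPM in the mandible libraries, and in cluster 1 to 12.9 to 17.6 CPM in the femur libraries and 28.7 to 64.3 CPM in the mandible libraries. Basophil and mast cell markers (10 genes) summed in cluster 5 to 268 to 592 CPM in the femur libraries and 291 to 746 CPM in the mandible libraries, with none at 0. In monocyte-labelled cells they summed to 29.1 to 51.2 CPM in the femur libraries and 27.2 to 37.6 CPM in the mandible libraries, with Fcer1a and Il4 at 0. Hdc alone, pooled over libraries, stood at 33.1 CPM in monocyte-labelled cells and 532 CPM in neutrophil-labelled cells. In cluster 1 the same list summed to 1569 to 2307 CPM in the femur libraries and 1443 to 1627 CPM in the mandible libraries. Sums of this list are therefore no measure of basophil content. Without the 47 basophil-labelled cells, an alternative chosen after seeing the data, the log2 ratio of mandible over femur in cluster 5 was 0.40 ± 0.35 (SE) for Ccl3, in place of 0.50, and -0.65 ± 0.45 (SE) for Ccl4, in place of -0.32. Macrophage markers (12 genes) summed in cluster 5 to 896 to 4411 CPM in the femur libraries and 670.1 to 1628 CPM in the mandible libraries. They did not overlap between sites in cluster 1, at 503 to 569 CPM in the femur libraries and 311 to 368 CPM in the mandible libraries, nor in monocyte-labelled cells, at 492 to 676 CPM in the femur libraries and 209 to 376 CPM in the mandible libraries. Dendritic cell markers (12 genes) were apart as well, in cluster 5 at 3420.4 to 5539 CPM in the femur libraries and 1767 to 3045 CPM in the mandible libraries and in monocyte-labelled cells at 3869.5 to 5718 CPM in the femur libraries and 1527 to 2574 CPM in the mandible libraries. In cluster 1 they were apart too, at 54.2 to 74.1 CPM in the femur libraries and 33.2 to 43.7 CPM in the mandible libraries, with Ccr7 at 0. Monocyte markers (12 genes) were apart the other way, in cluster 1 at 375 to 465 CPM in the femur libraries and 548 to 697 CPM in the mandible libraries, in cluster 2 at 567 to 705 CPM in the femur libraries and 796 to 883 CPM in the mandible libraries and in monocyte-labelled cells at 7546 to 8819.7 CPM in the femur libraries and 9114 to 9536 CPM in the mandible libraries. Low sums also stood apart in cluster 1 for T and NK cell markers (10 genes, Cd3e at 0), at 8.85 to 14.4 CPM in the femur libraries and 15.2 to 18.8 CPM in the mandible libraries, and for eosinophil markers (6 genes), at 18.3 to 19.9 CPM in the femur libraries and 12.6 to 16.8 CPM in the mandible libraries. In cluster 2 macrophage markers were apart, at 293 to 386 CPM in the femur and 235 to 260 CPM in the mandible libraries. Sums higher at the mandible there, femur range first, were T and NK cell markers (11.2 to 14.7 and 16.9 to 18.3 CPM, Cd3e, Trac and Klrb1c at 0). Megakaryocyte and platelet markers (12.7 to 21.2 and 27.9 to 37.8 CPM) and tooth, bone and stroma transcripts (5.86 to 24.2 and 32.7 to 88.8 CPM, Dspp at 0) were too. In cluster 0, where Ccl4 was apart, erythroid markers (8 genes) summed to 18.8 to 27.5 CPM in the femur libraries and 50.6 to 217 CPM in the mandible libraries, transcripts of tooth, bone and stroma to 7.102 to 10.95 CPM in the femur libraries and 19.95 to 39.6 CPM in the mandible libraries, and T and NK cell markers to 14.01 to 18.5 CPM in the femur libraries and 19.3 to 21.6 CPM in the mandible libraries, each without overlap. In DC-labelled cells neutrophil markers (13 genes) summed to 5245 to 22264 CPM in the femur libraries and 2709.6 to 3547 CPM in the mandible libraries, B lineage markers (10 genes, Vpreb1 and Igll1 at 0) to 723 to 845 CPM in the femur libraries and 879 to 1216 CPM in the mandible libraries, and transcripts of tooth, bone and stroma to 0 to 7.98 CPM in the femur libraries and 10.8 to 23.3 CPM in the mandible libraries, again without overlap. In macrophage-labelled cells dendritic cell markers were apart, at 10304 to 14054 CPM in the femur libraries and 5978 to 9066 CPM in the mandible libraries. Further sums were higher at the mandible without overlap, among them T and NK cell markers in cluster 4 (82.4 to 94.8 and 105 to 141 CPM, femur range first). Over all cells they included monocyte (1109 to 1544 and 1633 to 1756 CPM), erythroid (169 to 461 and 578 to 1364 CPM) and platelet markers (17.1 to 31.0 and 35.2 to 45.8 CPM). Sums that stood apart were picked from many and not counted against all sums compared. Apart from the fit without basophil-labelled cells, the part of any of these in the differences between libraries or sites was not tested.

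The other genes of the pathway gave no call either, with 0 genes of any list passing in any of the 14 fits by edgeR. Over all genes tested, 7.11% had an unadjusted p under 0.05 in cluster 5 and 13.6% in cluster 1, and the counts of each list stand beside these shares. Of 24 other chemokine ligands (Cxcl11 was not analysed here), 15 were tested in cluster 5, where 7 had an unadjusted p under 0.05 and the median log2 ratio was -0.38, against -0.01 over all genes tested there. Cxcl12, the ligand that holds cells in marrow, averaged 55.8 CPM in cluster 5 but 1.38 CPM in its monocyte-labelled cells, Ccl2, the ligand of Ccr2, 38.4 CPM, and Ccl5 32.3 CPM. In cluster 1, where 7 were tested and 3 had an unadjusted p under 0.05, Cxcl10 led with 7.01 CPM, ahead of Ccl25 with 4.89 CPM and Cxcl12 with 4.08 CPM. Of 10 receptors all were tested in cluster 5, 0 had an unadjusted p under 0.05, and the median ratio was -0.15. The receptors divided by cluster, with Ccr2 at 748 CPM in cluster 5 and 3.46 CPM in cluster 1, Cx3cr1 at 234 and 6.42 CPM, Cxcr2, the receptor of Cxcl2 and Cxcl3, at 185 and 1477 CPM, and Ccr1, a receptor of Ccl3, Ccl6 and Ccl9, at 142 and 864 CPM. The Tnf receptors Tnfrsf1a and Tnfrsf1b averaged 115 and 201 CPM in cluster 5 and 222 and 110.4 CPM in cluster 1.

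Of 12 other ligands of the Tnf superfamily, 8 were tested in cluster 5 (0 with an unadjusted p under 0.05, median ratio -0.25), led by Ltb at 51.8 CPM, Tnfsf13 at 49.2 CPM and Tnfsf13b at 33.6 CPM. In cluster 1, with 4 tested and 1 at an unadjusted p under 0.05, Ltb, Tnfsf13b and Tnfsf14 averaged 258, 47.1 and 44.6 CPM. Of 14 genes linked to Tnf shedding, to Tnf and NF-kB signalling or to the decay of cytokine messages, all were tested in cluster 5. Of them 1 had an unadjusted p under 0.05 there (median ratio -0.19), and 4 of 13 did in cluster 1. The message-degrading Zfp36 averaged 559 CPM in cluster 5 and 1718 CPM in cluster 1, and the NF-kB regulator Nfkbiz 366 and 906 CPM. Zfp36l2 averaged 397 and 435 CPM and Tnfaip2 219 and 647 CPM. Of 10 other inflammatory mediators, 9 were tested in cluster 5 and 2 had an unadjusted p under 0.05 (median ratio -0.34), and 3 of 6 did in cluster 1. Il1b averaged 188 CPM in cluster 5 and 1902 CPM in cluster 1, Ptgs2, the inducible enzyme of prostaglandin synthesis, 54.8 and 698 CPM, and the cytokine Osm 64.5 and 381 CPM.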

How the data were processed

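The data were 10x 3′ single-cell counts of 6 libraries. Per the labels and the methods, the authors aligned and counted reads with Cell Ranger (7.0.1 in the processing notes, 7.1.0 in the matrix headers) on mm10, kept cells with 600 to 6000 genes and at most 20 percent mitochondrial UMIs (the deposited percent column), then normalised, integrated, clustered and labelled them with Seurat in R 4.1.0 and SingleR. The deposited UMI counts are raw and whole, and the cluster, label and phase columns were used as deposited. A deposited marker table holds the authors' log2 fold changes and p-values of each cluster against the rest, and was not used. Files held 8184 to 23233 barcodes per library, of which 7763 to 22797 were kept. Doublet removal is not given in the sources used here, and none was done.

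Counts were summed per library and cluster or label (at least 10 cells) and tested with edgeR 4.0.16 (quasi-likelihood, TMM, filterByExpr, Benjamini-Hochberg adjustment over all genes tested, threshold 0.05) in R 4.3.3, with DESeq2 1.42.0 as an alternative. The difference of site effects between clusters 5 and 1 was fitted with limma 3.58.1 on log2 CPM (prior count 2). Shares of positive cells were compared by 2-sided exact permutation over 20 assignments of libraries (scipy 1.17.1), adjusted over 63 pairs. Likeness was Pearson's r of log2(CPM + 1). The fits were tested on simulated data. Upper limits for a count of 0 take 3 counts and cover counting error alone. All members were described in every cluster, and from each list of related genes the 3 highest means in clusters 5 and 1 were named, with any gene that passed the threshold (there was none). The members and lists were chosen with earlier results of these data known.

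Alternatives were DESeq2, no filter on low counts, replicate blocks, each library left out, cells at or above the 95th percentile of UMIs left out (doublets hold more UMIs), thinning to 1000 UMIs, 2 UMIs or more, clusters 5 and 0 or a prior count of 0.5 for the difference of site effects, the mean over cells for levels, and other likeness measures. Leaving out basophil-labelled cells, and the 2 cells with the most Cxcl2 and Ccl4, was chosen after seeing the data.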

Additional observations from a re-analysis of the deposited data

How the results depend on the processing

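Member fits called for site over the clusters and all cells numbered 0 by edgeR, 1 with DESeq2 and 7 with no filter on low counts, and 0 without each library in turn. In the labels of cluster 5 they numbered 0, and 4 with no filter. Gene fits called, summed over the 14 populations, numbered 46, then 1442 with DESeq2, 2933 with no filter, and 12 to 761 without 1 library, the highest without Mandible replicate 1. A replicate block on the title number gave 140 gene fits and 0 member fits. Same-numbered titles had deviations correlated at r of -0.40 to 0.61, over 0.1 in 9 of 30 comparisons. A replicate block on the library number used 2 pairs, Femur replicate 2 with Mandible replicate 1 and Femur replicate 3 with Mandible replicate 2, and left out the other libraries. It called 5410 gene fits, with 16 member fits over the clusters and all cells and 2 in the labels. Deviations of those pairs correlated at r of -0.63 to 0.50, over 0.1 in 16 of 20 comparisons. The -0.63, and the 0.61 of same-numbered titles, came from cluster 8, the smallest cluster. Over all cells and the other clusters, the library-number pairs ran from 0.0031 to 0.50. Same-numbered titles ran there from -0.40 to 0.18. The labels do not say what that number marks and it gives only 2 pairs, so whether it pairs the samples was not settled. The block turned the log2 ratio of Ccl4 in cluster 1 to 0.0065, of Ccl4 in cluster 5 to 0.33 and of Ccl9 in cluster 5 to 0.067. Leaving out the 2 cells that lead in Cxcl2 and Ccl4, chosen after seeing the data, turned Ccl4 to 0.035 in cluster 5 and 0.0034 in its macrophage-labelled cells. Without 1 library, the ratio ran from -0.43 to 0.48 for Ccl3 in cluster 1 (below 0 without Femur replicate 3 or Mandible replicate 1) and from -0.059 to 0.23 for Ccl6 there (below 0 without Mandible replicate 1). In cluster 5 it ran from -0.68 to 0.28 for Ccl4 (above 0 without Femur replicate 1), from -0.47 to 0.053 for Ccl6 (above 0 without Femur replicate 2), from -0.28 to 0.059 for Ccl9 (above 0 without Femur replicate 2 or Mandible replicate 3) and from -0.13 to 0.17 for Tnf (below 0 without Femur replicate 1 or Mandible replicate 1). Shares without overlap between sites numbered 5 of 63, then 3 (4.76%) at 2 UMIs or more and 8 to 17 (12.7 to 27.0%) without 1 library, where all gene and cluster pairs gave 8.04% and 19.5 to 24.1%. Of 21 genes most like a member, 8 were kept with Spearman correlation and 7 over sums of at least 50 cells. The cause of these changes was not tested. The difference between clusters 5 and 1 had 0 calls under every alternative tried. Among the named ratios, other settings gave 100 values on the same side of the threshold, 16 that passed it and 5 of opposite sign, and leaving out 1 library gave 129 and 9 of opposite sign.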

Other observations

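The deposited cell cycle calls split the monocyte-labelled cells of cluster 5 into 3157 cells called G1, 115 called S and 462 called G2M, and the means of Ccl6, Ccl9 and Ccl3 were highest in G1. Ccl6 averaged 1017 ± 149 CPM in G1, 311 ± 188 CPM in S and 517 ± 98.9 CPM in G2M cells. Ccl9 averaged 398 ± 38.9, 149 ± 56.3 and 249.9 ± 22.3 CPM, and Ccl3 102 ± 36.6, 42.5 ± 21.5 and 74.1 ± 41.1 CPM, in the same order of calls. The mean of Tnf was instead lowest in G1, at 30.4 ± 7.13, 37.6 ± 23.5 and 39.2 ± 10.6 CPM. The ± values are SD over 6 libraries, the calls rest on the same counts as the levels, and no test was made.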
